A study of Mus musculus with 4 samples.

Results

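NR1D1 peaks were described at 10 genes of the NRF2 antioxidant pathway in mouse aortic smooth muscle cells in primary culture: Nfe2l2, Keap1, Nqo1, Gclc, Gclm, Hmox1, Txnrd1, Sod1, Sod2 and Cat. NR1D1 (REV-ERB alpha) is a haem-binding nuclear receptor that represses transcription, and was mapped by CUT&Tag, in which an antibody directs a transposase to cut out the DNA beside the bound protein. The cells were of WT genotype and were treated for 24 h with PBS (phosphate-buffered saline) or with vasostatin-2, a peptide cut from the precursor chromogranin A. One NR1D1 library per treatment was used, all libraries carry the label batch1, and those made with IgG were not used here. Because each treatment has 1 library, replicate error could not be estimated and the effect of treatment was not tested. Intervals on fragments and their ratios below cover counting error only. Those on shares of genes treat genes as independent draws, which a list chosen by name is not. The 10 genes were fixed by name among 21887 protein-coding genes, with earlier results of these data known. All peaks that overlapped a gene's RefSeq span (GRCm38.p6, the assembly of mm10) plus 10 kb on each side were taken, which gave 6 of 7377 PBS peaks and 4 of 8816 vasostatin-2 peaks.

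NRF2, the product of Nfe2l2, is a transcription factor that is held at low level by KEAP1, an adaptor that marks it for degradation. When oxidants or electrophiles modify KEAP1, NRF2 accumulates and, with small MAF proteins, switches on genes that carry an antioxidant response element in their control regions. Its targets make glutathione (Gclc, Gclm), reduce thioredoxin and quinones (Txnrd1, Nqo1) and degrade haem (Hmox1), while the superoxide dismutases Sod1 and Sod2 and catalase (Cat) remove superoxide and hydrogen peroxide. Oxidant signals of this kind are known to act on growth and contraction of vascular smooth muscle.

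The peaks taken for these genes lay mostly at transcript starts. In the PBS library 4 of 6 peaks had their summit within 1 kb of a listed start of the gene itself (Nfe2l2, Nqo1, Txnrd1 and Sod2), where 34.9% of the whole list lay that near to any listed start. In the vasostatin-2 library 3 of 4 did (Nfe2l2, Nqo1 and Txnrd1), against 20.1%. The whole lists also hold peaks far from genes, which the window rule left out for these genes, so the shares are not a like background. The measures differ too, since the PBS peak near Hmox1 lay at the start of its neighbour Mcm5 and was not counted. The sequences of 4 promoters are shown because they are the windows that a peak overlapped. Each is the 250 bases before a RefSeq start of build GRCm38.p6, 5′ to 3′ on the strand of the gene. Capitals mark matches to TGACNNNGC, the core of the antioxidant response element, and to GGGCGG, the GC box, on either strand.
Nfe2l2, chr2:75704664-75704913, minus strand: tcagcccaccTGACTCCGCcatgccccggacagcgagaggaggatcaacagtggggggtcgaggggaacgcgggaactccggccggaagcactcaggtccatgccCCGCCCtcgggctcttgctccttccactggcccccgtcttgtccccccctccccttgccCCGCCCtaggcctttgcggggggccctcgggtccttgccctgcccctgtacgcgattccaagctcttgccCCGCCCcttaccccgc
Nqo1, chr8:107403206-107403455, minus strand: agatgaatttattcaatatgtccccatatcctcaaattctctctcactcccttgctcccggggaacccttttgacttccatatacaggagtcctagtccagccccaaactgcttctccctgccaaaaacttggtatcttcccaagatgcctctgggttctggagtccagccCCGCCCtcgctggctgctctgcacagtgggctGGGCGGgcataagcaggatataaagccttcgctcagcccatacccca
Txnrd1, start inside the gene span, chr10:82858956-82859205, plus strand: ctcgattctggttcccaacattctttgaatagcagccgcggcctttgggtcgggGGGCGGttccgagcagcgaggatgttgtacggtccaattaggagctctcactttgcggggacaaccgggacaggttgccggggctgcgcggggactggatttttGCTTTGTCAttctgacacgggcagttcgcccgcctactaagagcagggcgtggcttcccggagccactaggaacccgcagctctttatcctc
Sod2, chr17:13007589-13007838, plus strand: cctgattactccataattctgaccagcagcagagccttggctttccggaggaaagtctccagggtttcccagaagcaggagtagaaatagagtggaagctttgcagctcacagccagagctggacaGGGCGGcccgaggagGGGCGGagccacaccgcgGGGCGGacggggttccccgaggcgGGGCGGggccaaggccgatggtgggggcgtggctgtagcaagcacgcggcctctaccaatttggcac
The start table held 8 of the 10 genes with 10 starts in all, and Gclc and Hmox1 were not matched in it.

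The Nfe2l2 and Txnrd1 windows each held 1 match to the antioxidant response core, TGACTCCGC at 240 to 232 bases before the Nfe2l2 start and GCTTTGTCA, its reverse form, at 92 to 84 bases before the Txnrd1 start. The Nqo1 and Sod2 windows held none. The same core was found in the Gclm window (GCACCGTCA) and in the Sod1 window (GCGTGGTCA), where neither list had a peak. Over all starts 10.2% of 32851 windows held this core. The nuclear receptor half-site AGGTCA was found in 1 of the 10 windows, that of Cat, against 14.0% of all windows. The longer REV-ERB and ROR response element known as RORE, which contains an AGGTCA or AGGTCA-like end and can overlap the half-site, was found in none of the 10, against 0.332% of all windows. The E-box CACGTG was also found in none, against 6.02% of all windows. GGGCGG was found in 8 of the 10 windows, among them 4 matches at Sod2, and in 32.7% of all windows. TGACCT, the reverse form of AGGTCA, can share its first 4 bases with TGACNNNGC. A match here describes letters in a window and is not a measured site.

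Nfe2l2, the gene of NRF2 itself, had the peak of highest fold enrichment among the 10 genes in the PBS library. The PBS peak was 721 bp wide (chr2:75704259-75704979), with its summit 8 bp after the Nfe2l2 start and 20 fragments at the summit (95% Poisson interval 12.2 to 30.9). Fragment numbers are whole and were solved from the authors' fold and -log10 p. Its deposited fold enrichment over the local background was 9.24, its -log10 p 18.03 and its -log10 q 13.5, and it ranked 440 in its list by fold. The vasostatin-2 peak was 283 bp wide (chr2:75704464-75704746) and lay wholly within the PBS peak, with its summit 121 bp after the start. It held 9 fragments (4.12 to 17.1), with a fold of 5.13, a -log10 p of 7.16 and a -log10 q of 3.50, and ranked 4018 in its list. The local background was 1.27 fragments for the PBS peak and 0.949 for the peak of the deeper vasostatin-2 library.

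Keap1, the gene of the NRF2 adaptor, had a peak in the PBS library and none in the vasostatin-2 library. The PBS peak (chr9:21241554-21241804) was 251 bp wide and its summit lay 2291 bp before the Keap1 start, outside the gene. The nearer gene end was that of S1pr5, a sphingosine-1-phosphate receptor, at 1294 bp, which is the downstream end of that gene on the minus strand. The summit held 10 fragments (4.80 to 18.4), with a fold of 6.27, a -log10 p of 9.25 and a -log10 q of 5.38. The nearest vasostatin-2 peak was 45110 bp away.

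**Figure D1:**
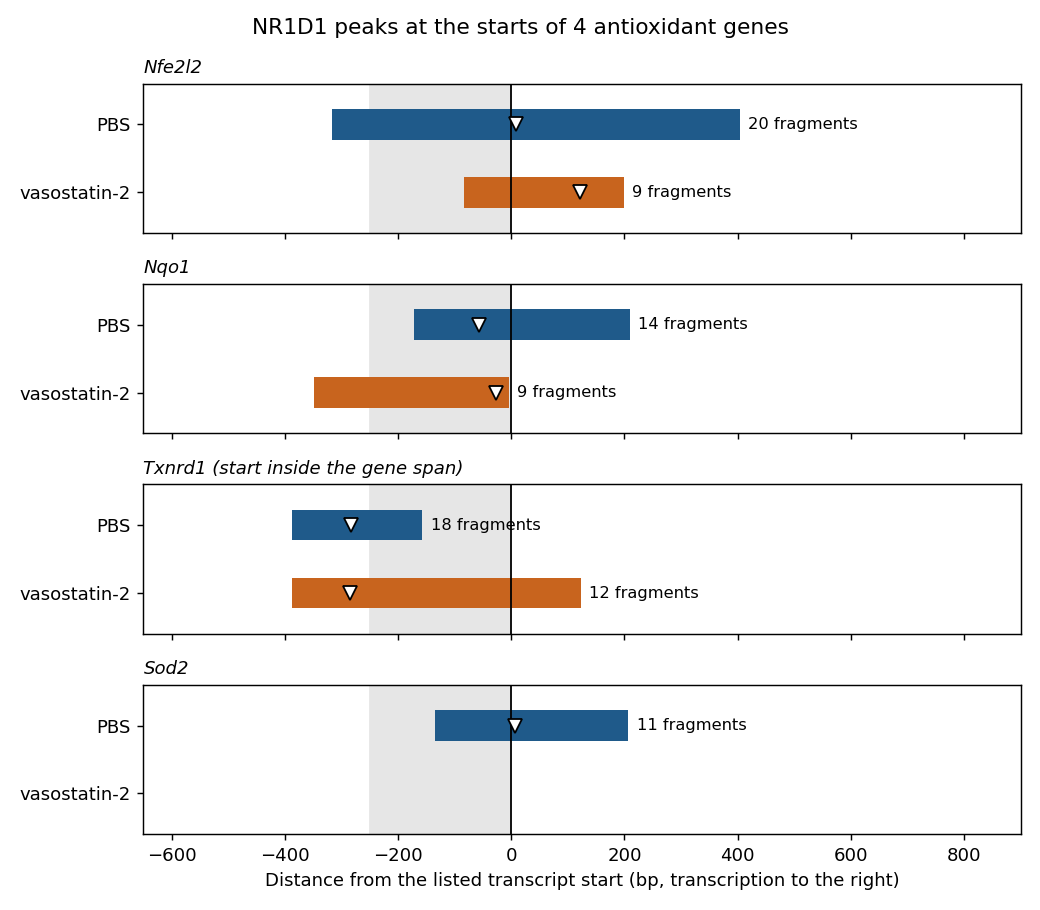
Peaks of both libraries around the listed starts of Nfe2l2, Nqo1, Txnrd1 and Sod2, as distance from the start in bp with transcription to the right; bars are peak widths, triangles summits, and grey the 250 bases before the start that are printed in the text. Summits lay within 121 bp of the start at Nfe2l2, Nqo1 and Sod2 and 283 and 285 bp before it at Txnrd1, and Sod2 had no vasostatin-2 peak.

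Nqo1, which encodes a quinone reductase and is a standard NRF2 target, had a peak at its start in both libraries. The PBS peak (chr8:107402996-107403376, 381 bp) had its summit 57 bp before the start with 14 fragments (7.65 to 23.5), a fold of 7.36, a -log10 p of 12.3 and a -log10 q of 8.10. The vasostatin-2 peak (chr8:107403209-107403553, 345 bp) had its summit 27 bp before the start with 9 fragments (4.12 to 17.1), a fold of 5.23, a -log10 p of 7.31 and a -log10 q of 3.63. The peaks overlapped by 168 bp, and their summits lay 30 bp apart. The PBS peak reached into the gene and the vasostatin-2 peak ended 4 bp outside it.

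Txnrd1, the gene of cytosolic thioredoxin reductase, had its shared peak at a start inside its 63774 bp span and not at the outermost start. Of its 3 listed starts, the one at chr10 position 82833951 lay 24972 bp from the PBS summit, and those at 82859206 and 82860341 lay 283 and 1418 bp after it. The PBS peak (chr10:82858819-82859049, 231 bp) held 18 fragments (10.7 to 28.4), with a fold of 8.70, a -log10 p of 16.2 and a -log10 q of 11.7. The vasostatin-2 peak began at the same base (chr10:82858819-82859329, 511 bp), with a summit 2 bp from the PBS summit and 12 fragments (6.20 to 21.0). Its fold was 7.17, its -log10 p 11.3 and its -log10 q 7.01. The summits lay 85 bp (PBS) and 87 bp (vasostatin-2) inside Gm38560, a noncoding RNA gene that starts at 82859008 on the opposite strand. The PBS peak covered the start of Gm38560 and ended before that of Txnrd1, and the vasostatin-2 peak covered both. In the vasostatin-2 library a further peak (chr10:82905523-82905881, 359 bp) lay 8013 bp past the end of Txnrd1, with 12 fragments, a fold of 6.86 and a -log10 q of 6.56. The nearest PBS peak was 46474 bp from it.

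Sod2, which encodes the manganese superoxide dismutase of mitochondria, had a peak at its start in the PBS library alone. The peak (chr17:13007705-13008046, 342 bp) had its summit 7 bp after the start, with 11 fragments (5.49 to 19.7), a fold of 6.66, a -log10 p of 10.1 and a -log10 q of 6.17. The nearest vasostatin-2 peak was 46765 bp away and nearest to Acat2. Sod1, the copper-zinc enzyme of the cytosol, had no peak in either list, and the nearest one lay 109481 bp from the gene in the PBS library and 222575 bp in the vasostatin-2 library.

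Hmox1, the gene of the inducible haem oxygenase, had a peak only by the width of the window. The PBS peak (chr8:75109475-75109774, 300 bp) lay 8882 bp from the gene and 19 bp after the listed start of its neighbour Mcm5, a subunit of the replicative helicase. It held 4 fragments (1.09 to 10.2), the fewest of any peak in the list, with a fold of 3.72, a -log10 p of 4.53 and a -log10 q of 1.61. The nearest vasostatin-2 peak was 15357 bp from Hmox1 and fell outside the window. Gclc and Gclm, the catalytic and the modifier subunit of the enzyme that starts glutathione synthesis, had no peak in either list. The nearest PBS peaks were 43183 bp from Gclc, with 4 fragments, and 46046 bp from Gclm, with 5. For catalase the nearest PBS peak was 184893 bp away and the nearest vasostatin-2 peak 48239 bp.

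**Figure D2:**
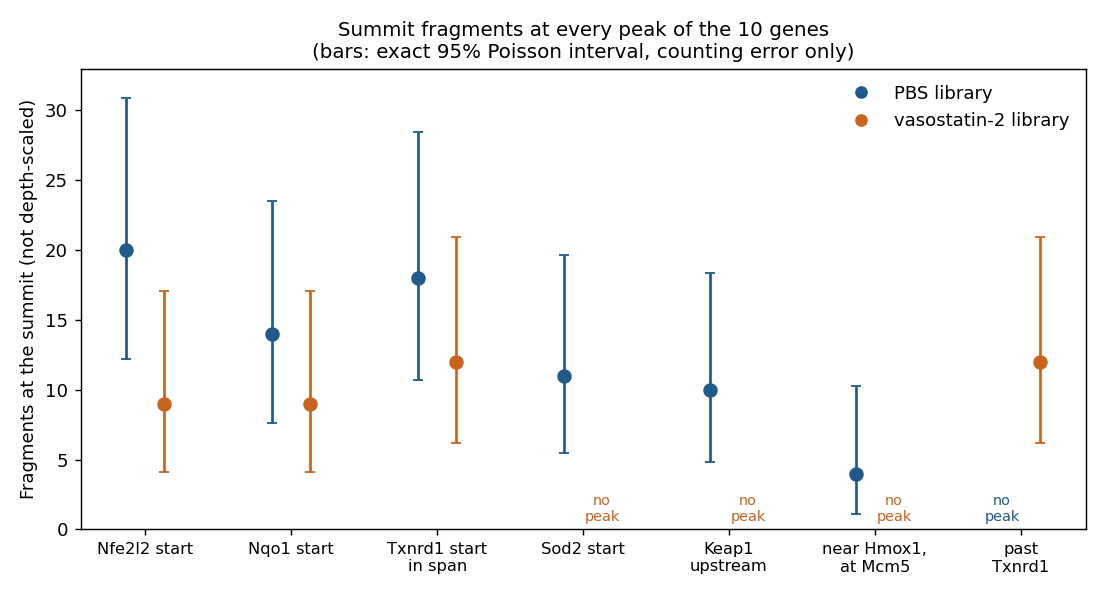
Fragments at the summit of every peak found at the 10 genes, by site and library, without scaling for depth; points are single libraries and bars exact 95% Poisson intervals. PBS summits range from 4 to 20 fragments and vasostatin-2 summits from 9 to 12, and the intervals of the 2 libraries overlap at the 3 sites with a peak in both.

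Counted over genes, 6 of 10 had a peak in the PBS library (60%, 95% Wilson interval 31.3 to 83.2), where 29.5% of all protein-coding genes had one under this rule. For vasostatin-2 it was 3 of 10 (30%, 10.8 to 60.3), near the background of 28.0%. Nfe2l2, Nqo1 and Txnrd1 had a peak in both lists, against 17.5% of coding genes. Keap1, Hmox1 and Sod2 had one in the PBS list alone (background 12.0%), none of the 10 had one in the vasostatin-2 list alone (10.5%), and Gclc, Gclm, Sod1 and Cat had one in neither. Counting only peaks whose nearest coding gene end belongs to the gene left 3 genes in each library. These were Nfe2l2, Nqo1 and Sod2 for PBS. For vasostatin-2 they were Nfe2l2, Nqo1 and Txnrd1, the last only through the peak past its end. The share of all coding genes under that count was not computed. The spans of the 10 genes ran from 5572 to 63774 bp. Among the 12543 coding genes of that range the backgrounds were 31.3% and 27.9%. At the starts themselves, taken as 250 bases before to 50 after, 4 of the 8 genes in the start table had a PBS peak (50%, Wilson interval 21.5 to 78.5), against 13.4% of coding genes in that table. In the vasostatin-2 library 3 of 8 did (37.5%, 13.7 to 69.4), against 8.42%. The 4 windows with a peak had a GC content of 53.2% to 70.4%, and GC content moves with peaks: listed starts of coding genes had a PBS peak at 12.4% and a vasostatin-2 peak at 7.74%, and those with at least 50% GC at 17.3% and 10.8%. The part of GC content in the counts for the 10 genes was not tested.

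Whether a PBS peak of these genes was found in both lists followed its number of fragments. The 3 genes with a shared peak had the 3 highest PBS summits, at 20, 18 and 14 fragments, and the peaks found in the PBS list alone had 11, 10 and 4. Over the whole PBS list 35.6% of peaks overlapped a vasostatin-2 peak. Among all PBS peaks with 20 fragments 80.3% were shared, with 18 fragments 78.9% and with 14 fragments 55.8%. With 11 fragments, as at Sod2, 49.6% of 375 peaks were shared (Wilson interval 44.6 to 54.6), and within 1 kb of a listed start 45.1% of 164. With 10 fragments, as at Keap1, it was 46.6% of 459, and with 4, as near Hmox1, 4.53% of 662. A PBS peak of the size seen at Sod2 or Keap1 was therefore about as often without a counterpart as with one. The vasostatin-2 list gives no value where no peak was called. At a local background like that of Sod2, scaled to the vasostatin-2 library and within 10%, the smallest of 675 vasostatin-2 peaks held 6 fragments, and likewise 6 at the background of Keap1. In the vasostatin-2 list fragments did not order the peaks of these genes in this way. The unshared peak past Txnrd1 had 12 fragments, as many as the shared Txnrd1 peak and more than the 9 at Nfe2l2 and Nqo1. Of the 288 peaks with 12 fragments in that list 60.8% were shared, or 50.3% of the 187 that lay over 1 kb from a listed start. With 9 fragments 70.6% of the 180 peaks within 1 kb of a listed start were shared, and 26.5% of the 506 farther away.

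**Figure D3:**
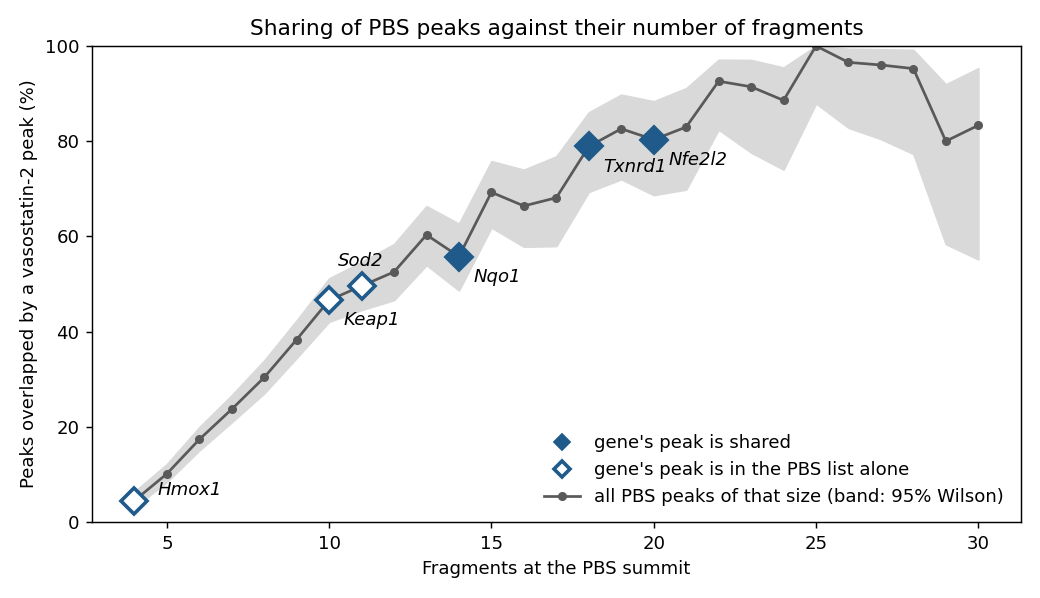
Share of PBS peaks overlapped by a vasostatin-2 peak (%) against fragments at the PBS summit, for all peaks of the list (line, with 95% Wilson band) and with the peaks of the 6 genes marked at the share of their size. Filled marks (Nfe2l2, Txnrd1, Nqo1) are shared and open marks (Sod2, Keap1, Hmox1) are in the PBS list alone, and the shares run from 4.53% at 4 fragments to 80.3% at 20.

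At the 3 shared peaks the summit held fewer fragments in the vasostatin-2 library, although that library was 1.32 times as deep by its background. The depth-scaled ratio of fragments, vasostatin-2 over PBS, was 0.341 at Nfe2l2 (exact 95% interval 0.137 to 0.784), 0.487 at Nqo1 (0.186 to 1.21) and 0.506 at Txnrd1 (0.222 to 1.11). These ratios compare 2 libraries, not the treatments. The interval lay below 1 at Nfe2l2 and included 1 at Nqo1 and Txnrd1. Without depth scaling the Nfe2l2 ratio was 0.45 with an interval of 0.180 to 1.03, which included 1. Such lower ratios were common at starts: of 1149 shared pairs within 1 kb of a listed start, 95.9% had fewer depth-scaled fragments in the vasostatin-2 library, with a median log2 ratio of -0.85. Set against start pairs within 5 fragments of its own total, Nqo1 (log2 ratio -1.04) had 34.3% of 478 pairs at or below it, and Txnrd1 (-0.98) had 46.2% of 299. Nfe2l2 (-1.55) had 8.51% of 329 pairs at or below it. A further scaling used the median of 672 shared pairs of at least 30 fragments together, with the largest PBS summits left out. Nfe2l2 (29 together) and Nqo1 (23) were not among those pairs. Relative to that median the ratios were 0.635 at Nfe2l2 (0.255 to 1.46), 0.908 at Nqo1 and 0.941 at Txnrd1, and all 3 intervals included 1.

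**Figure D4:**
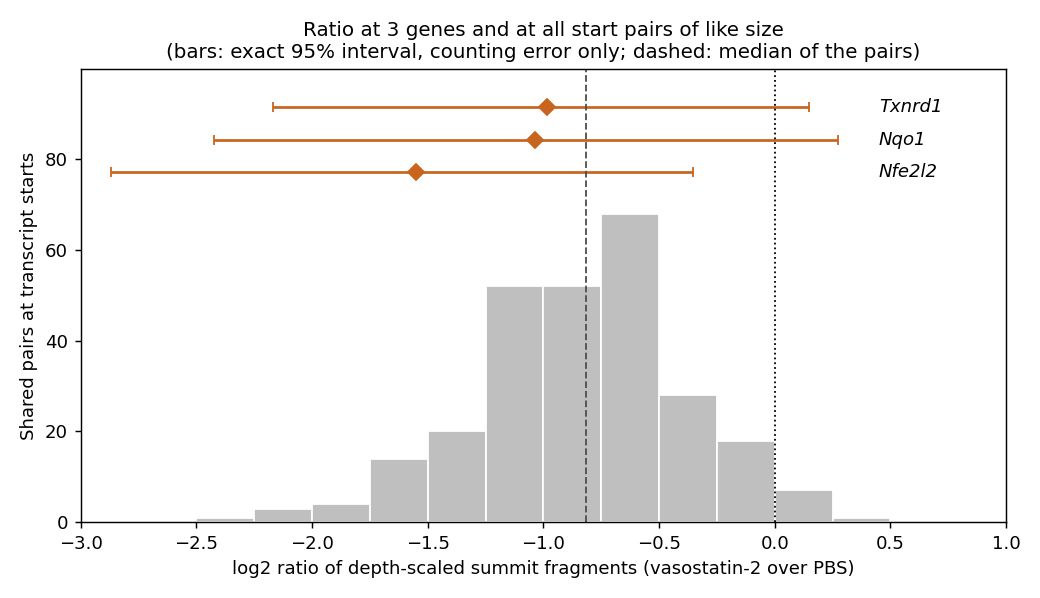
Ratio of summit fragments in the vasostatin-2 library to those in the PBS library (log2, scaled for depth) at Nfe2l2, Nqo1 and Txnrd1 (diamonds, with exact 95% intervals for counting error) above a histogram of the 268 shared pairs at starts with 23 to 30 fragments together, these 3 genes included. The dashed line is their median of -0.81 and the dotted line equal signal, and the 3 genes lie at -1.55, -1.04 and -0.98.

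Of 68 further genes of the pathway, 39 had a PBS peak (57.4%, Wilson interval 45.5 to 68.4) and 29 a vasostatin-2 peak (42.6%, 31.6 to 54.5), against the 29.5% and 28.0% of all coding genes. This list too was chosen with earlier results of these data known. Among these 68, both lists had a peak at 25 (36.8%, against 17.5% of coding genes), PBS alone at 14 (20.6%, against 12.0%), vasostatin-2 alone at 4 (5.88%, against 10.5%) and neither at 25. Their median span of 16602 bp was close to the 17169 bp of all coding genes. At starts, 21 of the 57 in the start table had a PBS peak (36.8%, against 13.4% of coding genes there) and 10 a vasostatin-2 peak (17.5%, against 8.42%). Listed starts of coding genes with at least 50% GC had a peak at 17.3% (PBS) and 10.8% (vasostatin-2). The part of GC content in the counts for the 68 genes was not tested. A peak that overlapped in both lists was found at 16 of the 68 genes, and at 5 of those (Nfe2, Gstp1, Prdx2, Blvrb and Ccs) the nearest coding gene end belonged to a neighbour. The share of all coding genes with such an overlapping peak is not given here. The 17.5% above counts genes with a peak of each list anywhere in the window, overlapping or not.

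Genes grouped as NRF2 control had a PBS peak in 11 of 14 cases (78.6%, Wilson interval 52.4 to 92.4), against 29.5% of all coding genes. The group also holds Nfe2 and Nfe2l1, relatives of NRF2, and both are among the genes with a peak in each list. A vasostatin-2 peak was found at 8 (57.1%, 32.6 to 78.6), against 28.0%. Gsk3b, a kinase that promotes NRF2 degradation, had 25 fragments 56 bp before its start in PBS and 13 in vasostatin-2. Fbxw11, a ubiquitin ligase subunit, had 9 and 7, and Syvn1, an NRF2 ligase of the endoplasmic reticulum, 10 and 10. The peak beside Nfe2, a relative of NRF2, held 27 and 10 fragments at the highest-fold peak of each list and lay 152 and 255 bp from an end of Hnrnpa1. Rbx1, a subunit of the ligase that KEAP1 serves, had 15 fragments in a peak of the PBS list alone. The small MAF genes Maff (21) and Mafk (17) also had PBS peaks with no overlap in the other list. Both genes had a vasostatin-2 peak elsewhere, of 9 fragments 9655 bp outside Maff and of 7 fragments 5501 bp before the Mafk start.

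Of 12 glutathione genes each list had a peak at 8, and 5 of these were common to both lists. The share was 66.7% in each (Wilson interval 39.1 to 86.2), against 29.5% (PBS) and 28.0% (vasostatin-2) of all coding genes. Gstm1, a glutathione transferase, had 16 fragments in both libraries, at its start. Gpx1, the cytosolic glutathione peroxidase, had 11 and 7, and Chac1, which degrades glutathione, 14 and 13. Slc7a11, the cystine transporter, had 4 and 5 fragments inside the gene. The Gstp1 peak, 21 and 8 fragments, lay 8321 bp outside the gene and nearest to Gstp2. Gstm1 and Gstp1 belong to families of near-identical neighbours, so reads there may be shared among copies. Ggct had the PBS-only peak of highest fold in the pathway (9.75-fold, 16 fragments), followed in this group by Gpx3 (11 fragments), while Gsr, glutathione reductase (9), and Gsta4 (6) had peaks in the vasostatin-2 list alone.

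The remaining groups are given with PBS first, against 29.5% and 28.0% of all coding genes. Thioredoxins and peroxiredoxins counted 6 and 4 of 12 (50% and 33.3%), and NADPH supply 5 and 2 of 8 (62.5% and 25%). Quinone, haem and iron handling counted 6 and 5 of 12 (50% and 41.7%). Superoxide sources and other dismutation counted 3 and 2 of 10 (30% and 20%). With so few genes the intervals are wide, and several shares lay near those of all coding genes. Txn1, the cytosolic thioredoxin that Txnrd1 reduces, had 7 and 6 fragments near its start. Prdx5 had a PBS-only peak of 15 fragments 85 bp after its start and a vasostatin-2-only peak of 9 fragments outside the gene. Idh1, a source of cytosolic NADPH, had 14 and 17 fragments at its shared peak of highest fold, and 10 and 8 at a further shared peak. Me1, the malic enzyme of the cytosol, had peaks of 7 (PBS) and 8 (vasostatin-2) inside the gene that did not overlap. They lay 15620 and 16231 bp from a gene end. Ugdh had 14 and 17. The Blvrb peak, 14 and 10, lay nearest to Sertad3, and a further peak of 13 was in the vasostatin-2 list alone. The Prdx2 peak, 24 and 18, lay nearest to Junb. Ccs, the copper chaperone of SOD1, had 14 and 21 fragments 8430 bp outside the gene, and Rac1, a switch of NADPH oxidases, 11 and 9 inside it. Of 17 shared pairs at these genes 16 (94.1%) had a depth-scaled ratio below 1 and 1, at Ccs, above it, where 83.8% of all 2626 shared pairs lay below 1. The median log2 ratio was -0.69, against -0.62 over all pairs, with a range from -1.98 to 0.19, and 3 intervals lay below 1. Most of the 17 pairs lay within 1 kb of a listed start, so all pairs are not a like set. Over the whole lists 95.9% of shared pairs that near to a start lay below 1, with a median of -0.85. Of pairs farther away 74.4% did, with a median of -0.40.

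**Figure D5:**
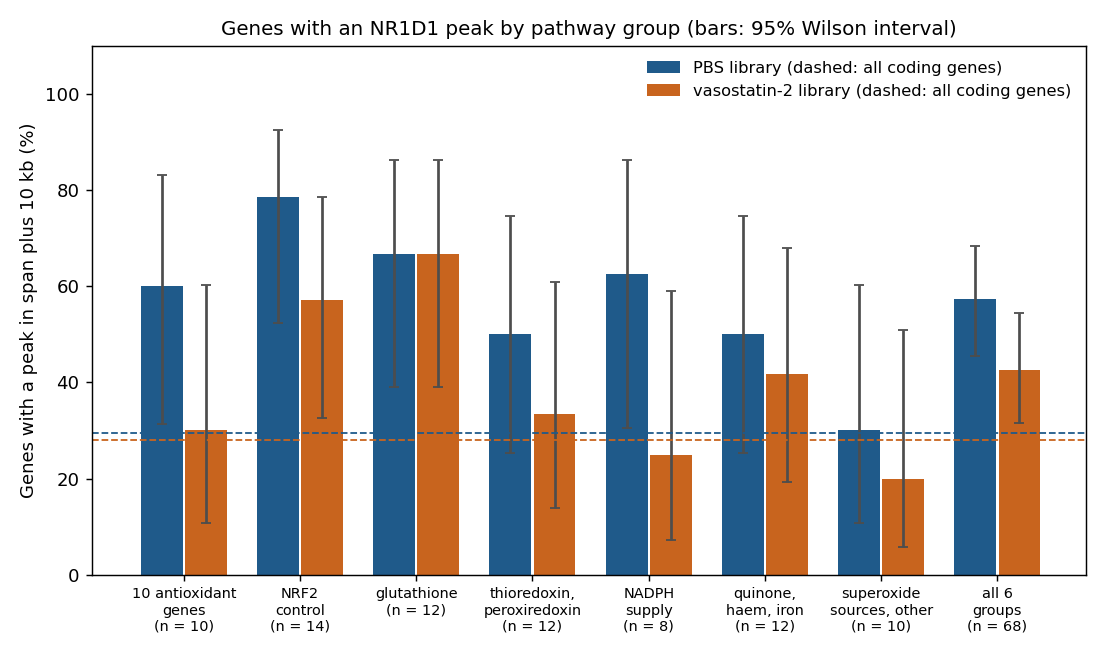
Share of genes (%) with a peak in the gene span plus 10 kb, for the 10 genes and for 6 groups of 68 further pathway genes, with 95% Wilson intervals; dashed lines are all coding genes, at 29.5% for PBS and 28.0% for vasostatin-2. The PBS bar is above the vasostatin-2 bar in every group but glutathione, where both are 66.7%, and all groups hold 14 genes or fewer.

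The labelled cell type could be set only against peaks, which do not measure expression. Among smooth muscle markers Myh11 and Tagln had a peak in both lists and Acta2 and Cnn1 in neither. The Myh11 peaks of the 2 lists did not overlap. Those of Tagln overlapped but lay outside the gene, 6240 bp (PBS) and 6267 bp (vasostatin-2) from an end of Sidt2, the nearest coding gene end. Of 12 markers of endothelium, macrophages and fibroblasts, 5 had a PBS peak and 5 a vasostatin-2 peak. Over all 16 markers 43.75% had a peak in each list (Wilson interval 23.1 to 66.8). That interval included the 29.5% (PBS) and 28.0% (vasostatin-2) of all coding genes. The RNA of the 10 antioxidant genes was not measured in these libraries.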

How the data were processed

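CUT&Tag of NR1D1 was analysed in 2 of the 4 samples, 1 library per treatment. Trimmomatic 0.39, BWA 0.7.17 and MACS2 2.2.7.1 and build mm10 are named in the submitters' processing notes, without roles or settings. Peaks were listed per library. The files have no header. The fold enrichment (a ratio to the local background), the -log10 p-value and -log10 q-value of each summit and its position are the authors' deposited values. The deposited score is the -log10 q times 10, rounded down, and was not used further.

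Summit fragments were recovered by solving fold = (fragments + 1)/(background + 1) together with the Poisson tail of the -log10 p. All peaks were solved within 0.0005; for 4 PBS peaks the second-best whole number was also close (an error under 10 times the best). Summits held 4 to 2125 fragments in PBS (median 8) and 4 to 2371 in vasostatin-2 (median 7). The floor of the background divided by its step gave the depth of the vasostatin-2 library as 1.32 relative to PBS; the labels and files used here give no totals. Whether the IgG libraries served as a control is not given in the sources used here, and no regions of repeated sequence were masked.

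Peaks were shared when they overlapped by at least 1 bp, and 1 pair per peak, that of most overlap, entered the ratios. Ratios carry exact conditional binomial intervals, counts exact Poisson and shares Wilson intervals, at 95%. Gene spans were those of RefSeq on GRCm38.p6, and starts, strands and sequences from the RefSeq start table of the same build, which held 32851 starts; exons and untranslated regions were not used here. Peaks on chromosome 18 had no start assigned. Genes of the wider pathway were named by rule: every gene with a shared peak, and up to 6 per list with the highest fold in a peak of that list alone. The 10 genes, the lists and the rules were chosen with earlier results of these data known. Steps were tested on simulated data. Python 3.11.15, numpy 2.4.6, pandas 2.3.3, scipy 1.17.1 and matplotlib 3.10.9 were used.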

Additional observations from a re-analysis of the deposited data

How the results depend on the processing

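The 10 genes give few peaks of 4 to 20 fragments, so each count turns on single peaks. Settings based on at least 8 fragments, the ratio of background floors, and for some counts the nearest gene end or the better part of a list by fold, were chosen after seeing the data. Of the recomputed values 45 stayed within 1.5 times the reported count or inside the reported interval, and 13 did not. Counting only peaks whose nearest coding gene end belongs to the gene lowered the PBS library to 3 genes and 3 peaks, since Keap1, Hmox1 and Txnrd1 then dropped out (nearest ends S1pr5, Mcm5 and Eid3). The vasostatin-2 library also had 3 genes and 3 peaks under this setting, so the reported 6 against 3 genes became 3 against 3. The genes were not the same: Sod2 stayed for PBS alone, and Txnrd1 stayed for vasostatin-2 through the peak 8013 bp past its end. The setting uses the ends of gene spans, not starts inside them. It therefore left out the shared Txnrd1 peak of each library, although the summits lay 283 bp (PBS) and 285 bp (vasostatin-2) before a listed Txnrd1 start. With a -log10 q of at least 5, 1 gene and 2 peaks stayed in the vasostatin-2 library and 1 shared peak (Txnrd1), and of the 68 further genes 19 had a PBS and 10 a vasostatin-2 peak. The gene span alone left 2 vasostatin-2 peaks and 14 of the 68 genes in that library. Keeping peaks at or above the median fold of their list left 20 and 15 of the 68 genes, and at least 8 fragments left 17 in the vasostatin-2 library. Shares of all coding genes under these and the preceding settings are not given here. These recounts of the 68 genes therefore have no background beside them. With reciprocal overlap of at least 50% of both peaks 0 of the 3 shared peaks passed. With summits within 200 bp, or a gap of up to 500 bp, it was 3. The ratio at Nfe2l2 ranged from 0.341 to 0.635, at Nqo1 from 0.487 to 0.908 and at Txnrd1 from 0.506 to 0.941 over the scalings, and stayed below 1 in each. No paired analysis was possible because there is 1 library per treatment and the labels give no replicate numbers.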

Other observations

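Across all start windows, those with a peak differed in letters from the rest. The RORE was found in 1 of 2944 windows with a PBS peak and in 1 of 1834 windows with a vasostatin-2 peak, against 109 of all 32851. The half-site AGGTCA was found in 8.49% and 8.40% of the windows with a peak, against 14.0% of all. GGGCGG was found in 72.2% and 73.6%, against 32.7%, and TGACNNNGC in 13.6% and 14.3%, against 10.2%. Median GC content was 63.2% in the windows with a peak of either library and 52.4% in all windows, and its part in these shares was not tested.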
